A study of Mus musculus with 3 samples.

Results

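The genes described here are 7 signalling and surface-associated genes that mark the 2 kinds of capillary endothelial cell (EC) of the lung. They were chosen by name, as rows of the deposited expression table: *Apln*, *Kitl*, *Fibin*, *Prx* and *Sostdc1* for the aerocyte side, and *Aplnr* and *Kit* for the general capillary side. All 7 have a row among the 24346 genes of the table. The values come from ECs sorted from the lungs of wild type C57BL/6J mice, freshly isolated and not cultured, and per the study's methods the adult animals were males aged 6 to 8 weeks. An antibody to VE-cadherin was injected into the circulation before death, and the digested tissue was sorted for CD31 and against CD45 and podoplanin. The 3 libraries analysed here are of this 1 condition and are called S38, S44 and S52, so levels and their spread can be given but no difference between conditions.

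The alveolar wall of the lung is served by a capillary net built from 2 EC types. Aerocytes are large, thin cells spread over the surface through which gas is exchanged, and general capillary cells are smaller, act as progenitors for the net and regulate its tone. The types are linked by ligands and receptors: aerocytes are known for apelin (*Apln*) and Kit ligand (*Kitl*), and general capillary cells for the apelin receptor (*Aplnr*) and the receptor tyrosine kinase Kit. In a bulk sample these types are mixed, and fewer cells of a type and less RNA per cell cannot be told apart.

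All 10 pan-endothelial genes examined were detected, against 48.3% of all genes in the table. None had a library over 2-fold above the lowest, against 20.1% of all detected genes, although *Erg*, *Emcn*, *Cldn5* and *Kdr* differed 1.60-fold to 1.97-fold. *Pecam1*, the CD31 gene, measured 1125, 1216 and 1164 FPKM in libraries S38, S44 and S52 (FPKM, fragment counts scaled to gene length and library size). S52 had far lower values for genes of platelets, alveolar type 2 cells, airway cells and leukocytes than the other libraries. Values are therefore given for each library. From the steps of the low values, depth was put at about 37300000 (S38), 38900000 (S44) and 34100000 fragments (S52). The labels do not say whether the libraries came from separate mice, so the spread between them may be partly technical.

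The members lie on 6 chromosomes, and only *Aplnr* and *Fibin* share one (GRCm38 coordinates of GENCODE M21 for all). *Apln* spans 48025146 to 48034853 on the minus strand of chromosome X, and *Aplnr* spans 85136225 to 85139923 on the plus strand of chromosome 2. *Kitl* spans 100015630 to 100100416 on the plus strand of chromosome 10, and *Kit* spans 75574916 to 75656722 on the plus strand of chromosome 5. *Fibin* spans 110360917 to 110363183 on the minus strand of chromosome 2, *Prx* spans 27499324 to 27520214 on the plus strand of chromosome 7, and *Sostdc1* spans 36314139 to 36318452 on the plus strand of chromosome 12. The longest coding transcripts of *Aplnr* and *Fibin* have 1 exon, whereas that of *Kit* has 21 exons. The reads carry no strand information, which matters where genes overlap. *Prx* alone overlaps another gene, *Gm15541* on the minus strand. Windows of the read length of 51 bases were compared with the transcripts of all other genes. In *Prx*, 132 of 5349 windows recur, all in *Gm15541*, and in the other 6 genes no window does.

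RefSeq promoter windows (GRCm38.p6, 250 bases before to 50 after a start) were found for 5 of the 7 genes, *Apln*, *Kit*, *Kitl*, *Fibin* and *Prx*. The bases before the outermost start of RefSeq and GENCODE are printed for the genes whose levels are described, at most 150 bases, 5′ to 3′ on the strand of the gene. Capitals mark the 3 motifs found within the printed stretches, on either strand. These are the ETS factor motif AGGAAG in *Apln*, which lies on the other strand and so reads in reverse complement, the motif known as the CCAAT box in *Prx*, and the GC box with the letters GGGCGG in *Apln* and *Kit*.
Apln (chrX:48034854-48035003, minus strand): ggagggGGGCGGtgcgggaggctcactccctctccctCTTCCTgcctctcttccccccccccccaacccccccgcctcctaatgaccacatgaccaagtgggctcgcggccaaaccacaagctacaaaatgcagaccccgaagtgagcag
Kitl (chr10:100015571-100015629, plus strand): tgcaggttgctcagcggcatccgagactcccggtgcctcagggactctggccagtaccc
Fibin (chr2:110363184-110363243, minus strand): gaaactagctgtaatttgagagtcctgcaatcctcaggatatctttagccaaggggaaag
Prx (chr7:27499174-27499323, plus strand): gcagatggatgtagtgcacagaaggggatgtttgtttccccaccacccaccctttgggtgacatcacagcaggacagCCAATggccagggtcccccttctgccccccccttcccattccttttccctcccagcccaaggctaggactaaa
Kit (chr5:75574766-75574915, plus strand): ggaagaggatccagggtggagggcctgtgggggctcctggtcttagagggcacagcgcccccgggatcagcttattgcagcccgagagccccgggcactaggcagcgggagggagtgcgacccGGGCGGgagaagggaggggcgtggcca

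Over the whole windows, on both strands, 6 motifs were searched and none was shared by all 5 genes. The GC box occurred in *Apln*, *Kitl* and *Kit* and in 35.7% of all 32851 windows, and the CCAAT box in *Prx* and in 37.4%. The ETS motif in capitals occurred in *Apln* and *Kit* and in 35.4% of windows. A second ETS motif with the letters CCGGAA occurred in *Kitl* and in 14.9% of windows. *Kitl* was also the only one of the 5 with a TATA box, searched as TATAAA and found 25 bases before its RefSeq start, and 13.6% of windows hold this motif. The T-box factor motif, searched with the letters GGTGTGA, was in none of the 5 and in 3.98% of windows. In *Kitl*, 2 GC boxes, 45 and 41 bases before the start, overlap each other, and no other matches in these windows overlap. These matches describe the letters of the windows and do not show binding.

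Of the 7 genes, 6 had a mean of at least 1 FPKM, the level called detected here, against 48.3% of all genes in the table. The 6 were also far above that level, from 39.9 to 223 FPKM on average, and the seventh, *Sostdc1*, was at the limit of detection.

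Apelin is a small secreted peptide made from a longer precursor. *Apln* measured 80.2, 81.5 and 48.5 FPKM in libraries S38, S44 and S52. S38 and S44 were nearly equal and S52 was the low library. The mean was 70.1 ± 18.7 FPKM (SD, n = 3 libraries), above 94.9% of the genes in the table. As *Apln* has a single annotated transcript of 3149 bases, its values stand for an estimated 9036, 9472 and 4925 fragments.

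The apelin receptor is a G protein-coupled receptor of venous and capillary endothelium. *Aplnr* measured 32.9, 43.0 and 43.8 FPKM in libraries S38, S44 and S52, with a mean of 39.9 ± 6.05 FPKM (SD, n = 3). Here S38 was the low library and S52 was level with S44. *Aplnr* was the only detected member that was not lowest in S52.

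Kit ligand, also called stem cell factor, is made as a membrane protein from which a soluble form can be shed. *Kitl* measured 193, 189 and 141 FPKM in libraries S38, S44 and S52, with a mean of 175 ± 29.0 FPKM (SD, n = 3). This is the second highest level among the members, above 97.8% of all genes. The table gives a single value per gene, so the membrane-bound and soluble splice forms, which fall under the 4 coding transcripts annotated, were not told apart.

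*Kit*, which encodes the receptor of Kit ligand, measured 91.1, 109.7 and 81.0 FPKM in libraries S38, S44 and S52, with a mean of 93.9 ± 14.5 FPKM (SD, n = 3). The libraries were in another order than for its ligand, with S44 the highest. Kit is also the defining receptor of mast cells, which carry CD45, a marker that the sort selected against. *Ptprc*, the CD45 gene, was at 4.30, 2.06 and 0.434 FPKM in libraries S38, S44 and S52. All 6 mast cell genes examined (*Cpa3*, *Cma1*, *Mcpt4*, *Tpsb2*, *Ms4a2* and *Fcer1a*) were listed at 0 in S52, where *Kit* was at 81.0 FPKM. Their summed level was 3.89 FPKM in S38 and 3.49 FPKM in S44, most of it from *Mcpt4*. The part of mast cells in the level of *Kit* was not tested.

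For both pairs, the ligand was higher than its receptor in all 3 libraries. *Apln* exceeded *Aplnr* 2.44-fold in S38, 1.89-fold in S44 and 1.11-fold in S52. The difference of log2(FPKM + 1), receptor minus ligand, averaged -0.77 ± 0.57 (SD, n = 3). *Kitl* exceeded *Kit* 2.12-fold in S38, 1.73-fold in S44 and 1.74-fold in S52, a mean difference of -0.88 ± 0.17 (SD, n = 3). The Kit pair thus kept a similar ratio in the 3 libraries, while the apelin pair came close to parity in S52. An exact paired sign-flip permutation test, two-sided, gave p = 0.25 for each pair (0.25 after Benjamini-Hochberg adjustment over the 2 pairs), which is the smallest p that 3 libraries allow, so the design cannot reach 0.05.

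*Prx* encodes periaxin, a PDZ domain protein best known from myelinating Schwann cells, where it ties the membrane to the cytoskeleton. It was the highest member, at 227, 251 and 191 FPKM in libraries S38, S44 and S52 and a mean of 223 ± 30.05 FPKM (SD, n = 3), which is rank 434 in the table. Relative to *Pecam1* in the same library it was at 20.2%, 20.7% and 16.5%. Schwann cell genes were far lower. *Sox10*, a lineage factor of these cells, was at 0.124, 0.0200 and 0 FPKM in libraries S38, S44 and S52. *Mbp* was the highest of the 5 genes of that list, at 8.78, 6.27 and 0.515 FPKM, and was lowest in S52 as *Prx* was, by a far larger fold. The part of these cells in the level of *Prx* was not tested.

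*Fibin* encodes a secreted protein first described in the developing fin bud. It measured 179, 153 and 65.6 FPKM in libraries S38, S44 and S52, with a mean of 133 ± 59.5 FPKM (SD, n = 3), the widest spread of the detected members. The highest library stood 2.73-fold above the lowest, and no other detected member reached 2-fold. Among all detected genes, 20.1% had such a spread. The count rests on S52: between S38 and S44 alone, no member differed over 2-fold. The values stand for an estimated 14283, 12540 and 4692 fragments of its single annotated transcript. Alveolar type 2 genes were also lower in S52. The summed level of 5 alveolar type 2 genes came to 3756, 3156 and 760 FPKM in that order of libraries, and each of the 5 was lowest in S52. Fibroblast genes summed to 75.7, 57.6 and 44.2 FPKM, a difference mostly of *Dcn* (47.4, 35.5 and 19.8 FPKM), while 3 of the 5 were lowest in S44. The part of both cell types in the level of *Fibin* was not tested.

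*Sostdc1* encodes a secreted antagonist of bone morphogenetic proteins that also modulates Wnt signalling. It was at 0.0165 FPKM in S38 and was listed at 0 in S44 and S52. The value in S38 stands for an estimated 1.02 fragments, that is, a single fragment. A count of 0 allows up to 0.0476 FPKM in S44 and 0.0546 FPKM in S52 (3 fragments, counting error only). *Rprml*, the lowest of the other aerocyte genes examined, had a mean of 7.07 ± 0.977 FPKM (SD, n = 3) in the same libraries. The level of *Sostdc1* thus could not be compared between libraries at this depth.

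**Figure D1:**
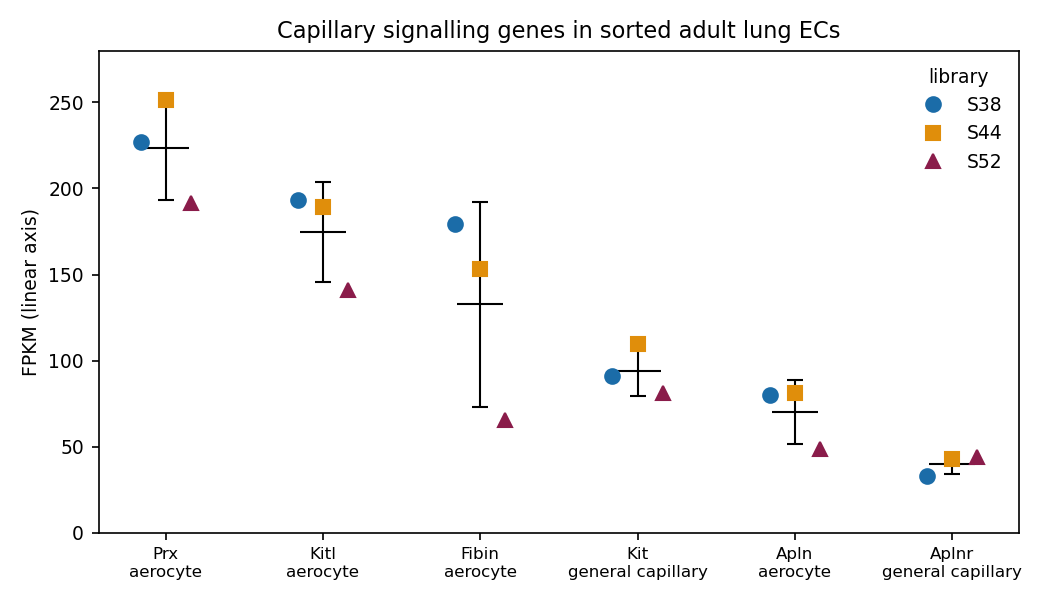
FPKM of the 6 detected genes (linear axis) in each of the 3 libraries, with the side of each gene under its name. Horizontal bars and error bars are the mean and SD over the 3 libraries. S52 (triangles) is the lowest library for *Prx*, *Kitl*, *Fibin*, *Kit* and *Apln* but not for *Aplnr*, and *Fibin* has the widest spread, from 65.6 to 179 FPKM.

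By mean FPKM, which is scaled to gene length and allows genes to be ranked, the order was *Prx*, *Kitl*, *Fibin*, *Kit*, *Apln*, *Aplnr* and *Sostdc1*. Most neighbours were close. The ranges of *Prx* and *Kitl* overlapped, with 191 FPKM as the lowest value of *Prx* and 193 FPKM as the highest of *Kitl*, although *Prx* was the higher in each library. *Kitl* was above *Fibin* in 3 of 3 libraries with overlapping ranges. *Fibin* was above *Kit* in 2 of 3 libraries and below it in S52, so their order changed between libraries. *Kit* was above *Apln* in 3 of 3 libraries, with ranges that met at 81.0 and 81.5 FPKM. The lowest value of *Apln* (48.5 FPKM) was above the highest of *Aplnr* (43.8 FPKM). By mean, the 3 highest members were thus of the aerocyte side, to which 5 of the 7 members belong. In S52 alone, *Kit* took the place of *Fibin* among them. Neighbours were picked from the values, so no test was made.

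The 4 detected genes of the aerocyte side (*Apln*, *Kitl*, *Fibin* and *Prx*) were all lowest in S52, as were 46.3% of all detected genes. Against S38, the difference of log2(FPKM + 1) in S52 was -1.44 for *Fibin*, -0.72 for *Apln*, -0.45 for *Kitl* and -0.25 for *Prx*. Against S44 it was -1.21, -0.74, -0.42 and -0.39 in that order. The median over all detected genes was -0.083 and -0.062. On the general capillary side, *Aplnr* differed by 0.40 from S38 and 0.024 from S44, and *Kit* by -0.17 and -0.43. *Kit* therefore lay nearer to *Prx* than to *Aplnr* in this respect.

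Further genes known from the same cells were examined next. Of 10 other aerocyte genes, 9 were lowest in S52. *Ednrb*, the endothelin B receptor gene, measured 143, 155 and 75.3 FPKM in libraries S38, S44 and S52. *Car4*, which encodes a membrane-bound carbonic anhydrase, was at 855, 959 and 582 FPKM, and *Chst1*, a sulfotransferase gene, at 42.4, 38.7 and 20.3 FPKM. *Nckap5* was the exception, at 27.3, 30.8 and 57.0 FPKM. The median difference of the 10 genes in S52 was -0.66 to S38 and -0.70 to S44, while S44 and S38 differed by 0.023.

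Of 9 other general capillary genes, 2 were lowest in S52 (*Glp1r* and *Clec1a*), and the remaining 7 were lowest in S38, as were 25.4% of all detected genes. With the same total for all libraries that share was 3.88%, and 0 of the 9 genes were lowest in S38. Under that scaling 7 of the 9 were lowest in S44, as were *Aplnr* and 55.6% of all detected genes. With a common endothelial median, 2 of the 9 were lowest in S38, 4 in S44 and 3 in S52. The shares of all detected genes were then 14.9%, 39.8% and 45.3%. The count for S38 thus depends on the scaling. *Gpihbp1*, whose protein anchors lipoprotein lipase in capillaries, measured 661, 663 and 886 FPKM in libraries S38, S44 and S52. *Plvap*, which encodes the diaphragm protein of fenestrae and caveolae, was at 815, 976 and 1034 FPKM, and *Sema3c*, a guidance cue gene, at 345, 362 and 489 FPKM. Their median difference in S52 was 0.21 to S38 and -0.0027 to S44. These are counts over libraries of 1 condition, so the difference between the lists was not tested. The 10 pan-endothelial genes had medians of 0.092 and -0.056 for the same differences, and *Kdr* and *Tek* stand both in that list and in a capillary list. *Emp2* and *Itga3* of the aerocyte list are also known from alveolar type 1 cells, whose genes did not move together. Of 5 genes of these cells, 2 were lowest in S52 and 3 in S44, against 46.3% and 28.4% of all detected genes.

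**Figure D2:**
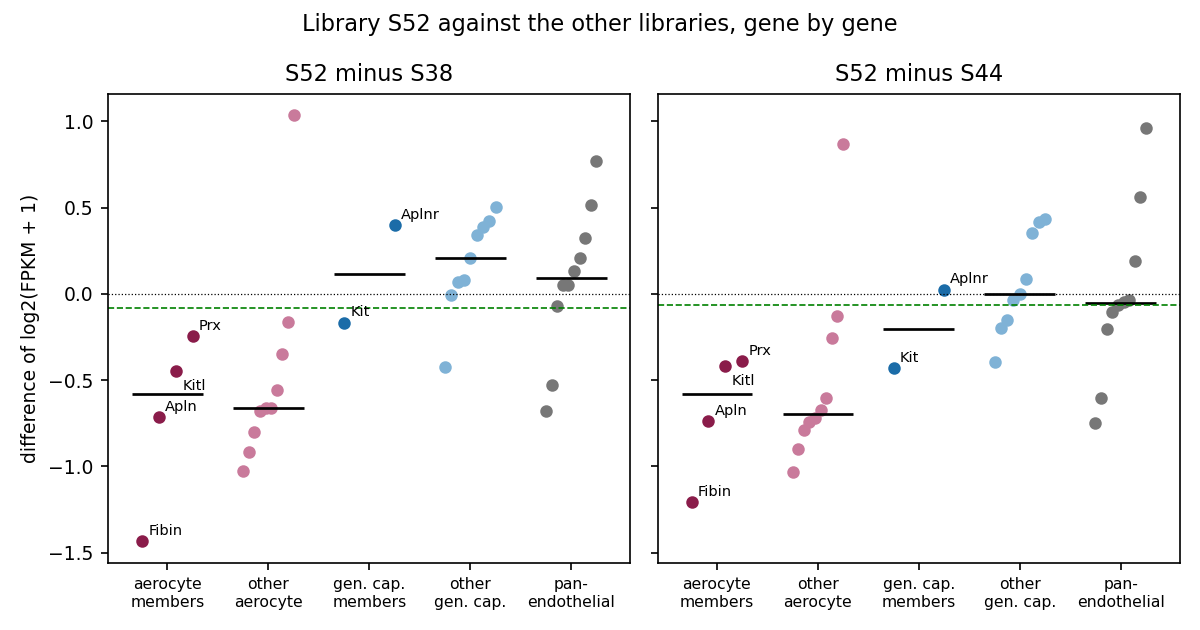
Difference of log2(FPKM + 1) between S52 and S38 (left) and between S52 and S44 (right). Each point is a gene, black bars are medians of each list, the dotted line is 0 and the dashed line is the median of all detected genes. The 4 detected aerocyte members lie between -1.44 and -0.25 on the left, *Aplnr* lies at 0.40, and the medians of the other aerocyte and other general capillary genes are -0.66 and 0.21.

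The profile of each member over the libraries, as log2(FPKM + 1) centred on its mean, was compared with the median profile of each list by Euclidean distance, over genes of at least 10 FPKM. The 3 points allow no correlation, and the lists hold few genes. *Apln* was at a distance of 0.040 from the other aerocyte genes and 0.70 from the other general capillary genes. *Aplnr* was at 0.77 and 0.17, with the dissociation stress genes nearer still at 0.092. *Kitl* was at 0.22 from the aerocyte genes and 0.47 from the general capillary genes. *Fibin* was at 0.55 from the aerocyte genes and 0.52 from the alveolar type 2 genes. *Prx* (0.31 and 0.36) and *Kit* (0.35 and 0.35) lay at about the same distance from both capillary lists. *Prx* and *Kit* were also the closest pair among the members, at 0.088. For *Prx*, *Kitl* and *Kit* the nearest list was that of venous genes, at 0.069, 0.088 and 0.15, of which 3 reached 10 FPKM.

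Single genes with profiles close to a member were many, because 3 values leave little room to differ. Within a distance of 0.1 there were 106 genes for *Apln*, 106 for *Aplnr*, 197 for *Kit*, 271 for *Kitl*, 345 for *Prx* and 10 for *Fibin*, among 6268 compared. The nearest were *Tmem70* and *A4galt* to *Apln*, *Gart* and *Tmem63a* to *Aplnr*, *Fam174a* and *Rraga* to *Kit*, *Mef2d* and *Mtg2* to *Kitl*, *H1f0* and *Mansc1* to *Prx*, and *Ptk2b* and *Gng11* to *Fibin*. *Gng11*, a G protein gamma subunit gene, measured 392, 329 and 145 FPKM in libraries S38, S44 and S52.

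The partners of the apelin pair were mostly present. Of 12 genes, 10 were detected, against 48.3% of all genes in the table. The G protein subunit genes through which the receptor signals were led by *Gnai2* at 543 ± 66.3 FPKM, followed by *Gnai3* at 64.4 ± 3.50 FPKM and *Gnai1* at 5.83 ± 0.389 FPKM (SD, n = 3 for each). The arrestin genes *Arrb1* and *Arrb2*, for receptor desensitisation, were at 66.0 ± 13.2 and 23.6 ± 4.80 FPKM (SD, n = 3). *Furin*, a proprotein convertase, was at 23.6 ± 3.20 FPKM (SD, n = 3), and *Nos3*, the endothelial nitric oxide synthase, at 19.8 ± 1.18 FPKM (SD, n = 3). Of the peptidases that can cut apelin, *Prcp* was at 30.7, 38.5 and 53.3 FPKM and *Mme* at 4.11, 2.93 and 2.59 FPKM in libraries S38, S44 and S52. *Apela*, the other ligand of the receptor, was listed at 0 in all 3 libraries.

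All 15 genes of the Kit pathway were detected, against 48.3% of all genes in the table. The adaptor genes *Grb2* and *Shc1* were at 46.5 ± 4.08 and 32.7 ± 1.47 FPKM (SD, n = 3). Among Src family kinase genes, *Lyn* measured 94.4, 99.0 and 54.0 FPKM in libraries S38, S44 and S52, while *Fyn* had a mean of 38.4 ± 3.90 FPKM (SD, n = 3) and *Src* of 3.23 ± 1.22 FPKM (SD, n = 3). Only *Src* of the 15 had a library over 2-fold above the lowest, against 20.1% of all detected genes. Of the negative regulators, *Sh2b3* was at 28.2 ± 6.31 FPKM and *Cbl* at 6.22 ± 1.55 FPKM (SD, n = 3), and *Ptpn6*, a phosphatase gene of blood cells, was at 1.59 ± 0.287 FPKM (SD, n = 3). *Adam17*, a sheddase of membrane proteins, was at 16.5 ± 1.66 FPKM (SD, n = 3).

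Although *Sostdc1* itself was barely measured, 12 of 18 genes of its Bmp and Wnt partners were detected by their mean, against 48.3% of all genes. In every library 9 of the 18 were detected, against 10698 of all 24346 genes. *Bmpr2*, the type II receptor gene, was at 152 ± 10.3 FPKM and *Bmp6* at 144 ± 10.1 FPKM (SD, n = 3). The Wnt co-receptor genes *Lrp5*, *Lrp6* and *Lrp4* were at 61.1 ± 3.93, 15.5 ± 3.39 and 8.84 ± 2.02 FPKM (SD, n = 3). Other secreted antagonists were low as well. *Sost*, the paralogue of *Sostdc1*, was at 1.05, 0.618 and 0.616 FPKM, *Nog* at 0.328, 0.0436 and 0.1499 FPKM and *Chrd* at 0.270, 0.263 and 0.217 FPKM in libraries S38, S44 and S52, and *Grem1* was listed at 0 in each. *Bmper* was at 1.16 ± 0.423 FPKM (SD, n = 3).

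Of 4 periaxin partners, 2 were detected, a share like the 48.3% of all genes. *Dag1*, the dystroglycan gene, was at 30.6 ± 0.947 FPKM (SD, n = 3), and *Utrn*, the utrophin gene, at 25.2 ± 5.31 FPKM (SD, n = 3). *Drp2*, which encodes the dystrophin-related protein that periaxin binds in Schwann cells, was at 0.00748 FPKM in S44 and listed at 0 in S38 and S52. *Dmd* was at 0.546 ± 0.113 FPKM (SD, n = 3). *Drp2*, unlike *Prx*, was therefore close to 0 in these libraries.

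**Figure D3:**
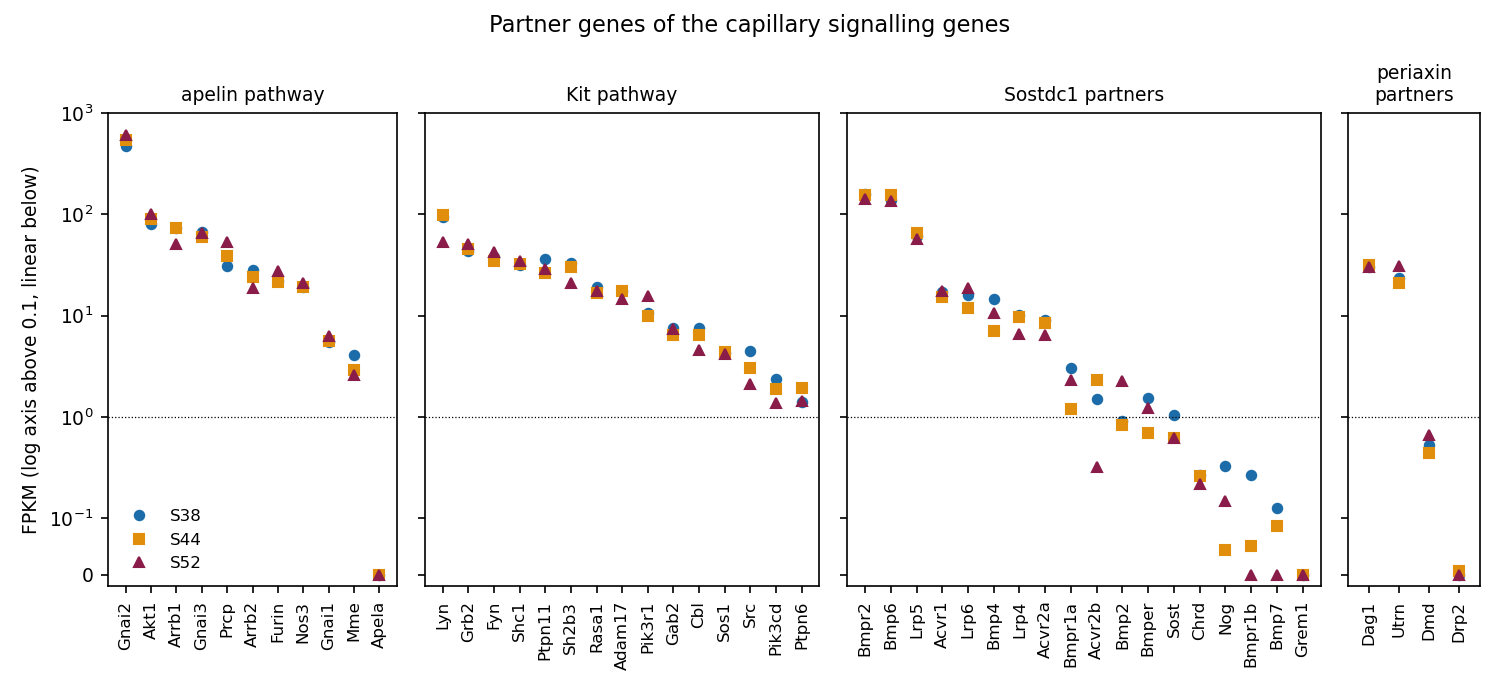
FPKM of the partner genes shown, 1 column a gene, in each library, on an axis that is logarithmic above 0.1 and linear below, with the dotted line at 1 FPKM. Within each panel genes are ordered by mean, from *Gnai2*, *Lyn*, *Bmpr2* and *Dag1* at the left to *Apela*, *Ptpn6*, *Grem1* and *Drp2* at the right.

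Genes of other cells are given as summed FPKM in libraries S38, S44 and S52. Platelet genes (4) were at 1692, 1345 and 37.96 FPKM, airway genes (4) at 2767, 2303 and 401 FPKM, and leukocyte genes (5) at 1074, 807 and 169 FPKM, most of it from *Lyz2*. Mesothelial genes (4) were at 2.34, 6.14 and 0 FPKM and Schwann cell genes (5) at 12.8, 8.48 and 3.89 FPKM. Alveolar type 1 genes (5) were at 351, 375 and 276 FPKM, and mural genes (5) at 114, 58.7 and 109 FPKM. Most of the alveolar type 1 sum came from *Hopx* (294, 332 and 201 FPKM), while 3 of the 5 genes were highest in S52. The same held for 3992 of 11770 detected genes. Within the endothelium, arterial genes (5) were at 248, 293 and 299 FPKM, venous genes (5) at 428, 460 and 320 FPKM and lymphatic genes (3) at 563, 621 and 411 FPKM, with *Prox1*, the defining lymphatic factor, at 0.132, 0.173 and 0.598 FPKM. The 10 pan-endothelial genes summed to 6369, 7058 and 6291 FPKM. Dissociation stress genes (9), which respond to tissue digestion, were at 3325, 4144 and 4866 FPKM. Of this sum, *Ier3* alone was at 884, 1124 and 1873 FPKM. The median difference of the 9 genes in S52 was 0.35 to S38 and -0.12 to S44. The median differences of S52 to S38 and S44 were -5.01 and -4.67 for platelet genes and -2.34 and -1.46 for alveolar type 2 genes, larger than those of any detected member. The part of these cells in the levels of the members was not tested.

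**Figure D4:**
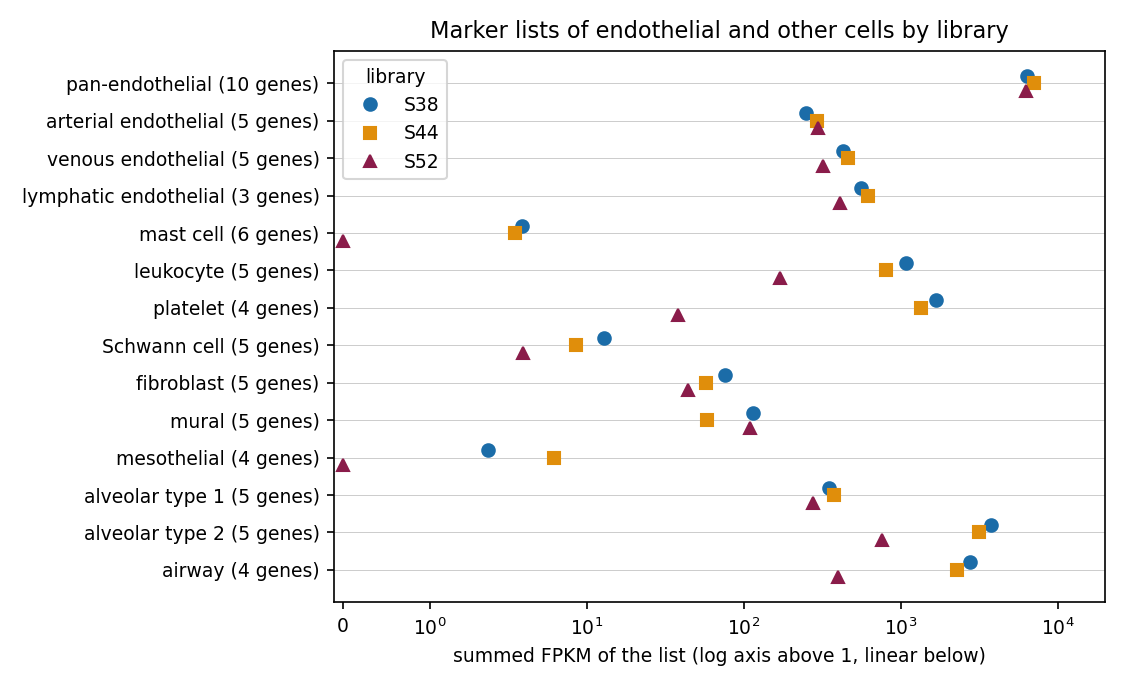
Summed FPKM of each marker list in each library, on an axis that is logarithmic above 1 and linear below. The pan-endothelial sums lie between 6291 and 7058 FPKM, whereas platelet, airway and alveolar type 2 sums are lowest in S52 and mast cell and mesothelial sums are 0 there.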

How the data were processed

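For 3 libraries of sorted adult lung ECs, the table that the authors deposited gives FPKM by gene symbol (build mm10). The submitters' processing notes list bcl2fastq 2.17, FastQC 0.11.5, Trimmomatic 0.36, TopHat2 2.1.0 and Cufflinks 2.2.1 without roles, and the paper describes STAR and HTSeq for its counts. The gene annotation is not given in the sources used here. Libraries were non-stranded, poly-A selected and read as pairs of 51 bases. FPKM sums were inflated by 1293 short noncoding genes (59.6% to 70.2% of each sum), so values were used without rescaling.

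Differences used log2(FPKM + 1), and detection required a mean of 1 FPKM or more. Depth was estimated from the FPKM steps of 7077 genes with a single transcript of 800 to 4000 bases. Of the low values, 75.1% to 78.8% came within 0.15 of a whole number. The step was searched to fit, so depths are estimates, and limits for 0 (3 fragments) cover counting error only. Both the depth and the profile method were tested on simulated data. The simulated counts followed the fitted depth model, and the simulated profiles were near copies of those of the members. These tests check the calculation only, not the uncertainty of the real values. Python 3.11.15, pandas 2.3.3 and numpy 2.4.6 were used.

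Named genes are the members, the genes of the capillary, pathway and marker lists, and the 2 nearest profiles of each member. Some list genes are not reported here by name. The members and lists were chosen with earlier results of these data known. The alternatives were library scalings, pseudocounts, thresholds and leaving out each library. The comparison of which library was lowest, and its scalings, were chosen after seeing the data.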

Additional observations from a re-analysis of the deposited data

How the results depend on the processing

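Libraries could not be paired between conditions because those analysed here form 1 group. Receptor and ligand were paired within each library for the test of their ratio. Giving all libraries the same total moved 4 mean levels by more than their SD, to 128 FPKM for *Kitl*, 163 for *Prx*, 28.7 for *Aplnr* and 68.1 for *Kit*. The same scaling without short noncoding genes moved all 6 detected members, to 148 for *Apln*, 370.0 for *Kitl*, 281 for *Fibin*, 473 for *Prx*, 84.5 for *Aplnr* and 199 for *Kit*, since the unit itself then changes by a factor of 2.09 to 2.14. Median-of-ratios factors and a common endothelial median moved none. At a threshold of 10 FPKM, 9 of 15 Kit pathway genes and 6 of 18 *Sostdc1* partners were detected, against 6269 of all 24346 genes. The number of members over 2-fold between libraries, 1 as reported, was 2 with the same total for all libraries and 2 at a fold of 1.5, and leaving out a library gave 0 to 1, with 0 without S52. With a minimum of 1 FPKM, 5 of the 12 nearest genes were kept. Both receptor-to-ligand differences stayed negative under each pseudocount and without each library. Their sign could not change, because the ligand was higher in every library and an equal pseudocount keeps the order. The 4 detected aerocyte members were lowest in S52 under each scaling, although the same total moved the median difference of all detected genes from S38 to S52 to -0.34. The other aerocyte genes were so in 8 or 9 of 10 cases and the other general capillary genes in 1 to 3 of 9. With or without scaling, 40.5% to 46.3% of all detected genes were lowest in S52. Depth limits *Sostdc1* alone among the members.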
